A study of Mus musculus with 18 samples.

Results

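The 10 genes Sox5, Sox6, Sox9, Acan, Matn1, Matn3, Hapln1, Comp, Prg4 and Cnmd, transcription factors and matrix proteins of cartilage, were taken by name from the 20275 genes of the raw mRNA matrix. All 10 were found. They were followed across the cluster codes that the authors gave to stromal cells, separately in each library. The stromal cells were CD45-Ter119- bone marrow (BM) cells of C57B6/J mice, sorted at embryonic day 16.5 (E16.5), E18.5, birth (P0) and in the adult, and profiled by CITE-Seq, which reads mRNA and antibody tags from the same cell. No transgene or treatment was involved. Each stage was 1 library made from pooled mice, so differences between stages carry no replicate error and no test, and stage cannot be told apart from library. The perinatal cells came from the whole skeleton without the head and the adult cells from tibias, femurs, pelvis and spine, in all cases after crushing and collagenase digestion of bone pieces. Per the study's methods, red blood cells were lysed in the adult preparation and not in the fetal one. The adult step is thus also a change of bones and of lysis. Sorted cells of the hematopoietic progenitor libraries are used only in the closing section.

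Cartilage forms when mesenchymal cells condense and switch on SOX9, which with SOX5 and SOX6 drives the genes of the cartilage matrix. That matrix is a mesh of type II collagen (Col2a1) filled with aggrecan, which holds water, and tied together by link protein, matrilins and COMP. In long bones most of this tissue is a growth plate template replaced by bone, while the cartilage of the joint surface persists and is lubricated by the product of Prg4.

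The 4 libraries held 35219 stromal cells (6267 to 14084 each), with median unique molecular identifiers (UMIs, each marking 1 captured transcript) of 11810 to 15590.5 per cell. Between 51 and 90 cell barcodes of a library also occurred in another stromal library. The authors' annotation gave 66 codes in the stromal cells. Codes were paired 1 to 1 with the cluster names of the study by the marker genes listed for those names. In 65 of the 66 pairs, no other code of the stage scored higher for that name. Whether another name scored higher for the code was not examined. Some names went against marker lists chosen here: at E18.5, P1 was paired with Pericyte and P2 with Muscle. Their leading lists were muscle for P1 and pericyte or smooth muscle for P2. By these names, 21 codes were cartilage clusters (Osteochondro or Chondro), holding 50.2% (E16.5), 61.0% (E18.5), 48.5% (P0) and 32.1% (adult) of the cells. The 20 codes that begin with C and a digit, called C codes here, were used beside them, a definition added after the data were seen. They held 50.2%, 61.4%, 43.1% and 17.5% of the cells. The definitions differ in that C5 at E18.5 and C2i and C2ii at P0 were paired with osteolineage (OLC) names, that codes CF1 and CF2 are Osteochondro by name, and that the adult Osteochondro name belongs to code F9. Checked against 12 chondrocyte markers that are not members, C codes summed to 35068 to 110886 UMIs of those genes per 1000000 UMIs of all genes (counts on this scale are CPM), and every other code, CF codes apart, stayed at or below 6295 at E16.5 and 11443 at E18.5. At P0 the code F3ii reached 46279 and in the adult F9 reached 54503, so these codes also carried chondrocyte transcripts. At P0, C2i and C2ii held the chondrocyte markers at 40341 and 88626 CPM, but 8 osteolineage markers at a summed 15.7 and 93.4 CPM. Their OLC names thus went against these markers, and results by name leave both codes out at P0. The leading list of C5 was osteolineage at E16.5, E18.5 and P0, with all 8 markers detected. These summed to 481, 422 and 322 CPM there, against 47600, 76855 and 73944 CPM for the chondrocyte markers. Synovial lining led for C2 at E16.5 and for C2i at E18.5 and P0. All other C codes led with the chondrocyte list. Median depth was higher in C codes (14031.5 to 27498 UMIs per cell) than over the libraries, and CF1 and CF2 were shallow, with medians of 516 to 2367. Codes with the same letters at different stages carry the authors' naming, and their match was not tested.

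The pair of matrilins in the set moved in opposite directions from P0 to the adult, so the sequences upstream of their genes are given first. Matn1 lies at chr4:130944385-130955476 and Matn3 at chr12:8947929-8972028, and the 250 bases before each RefSeq start (GRCm38.p6, plus strand, chr4:130944135-130944384 and chr12:8947679-8947928) are printed with the GC box GGGCGG, read on either strand, in capitals.
Matn1: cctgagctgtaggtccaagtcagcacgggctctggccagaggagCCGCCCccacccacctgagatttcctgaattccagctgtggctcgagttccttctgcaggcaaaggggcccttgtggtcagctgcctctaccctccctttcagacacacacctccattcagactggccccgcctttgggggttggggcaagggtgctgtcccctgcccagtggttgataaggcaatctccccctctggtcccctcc
Matn3: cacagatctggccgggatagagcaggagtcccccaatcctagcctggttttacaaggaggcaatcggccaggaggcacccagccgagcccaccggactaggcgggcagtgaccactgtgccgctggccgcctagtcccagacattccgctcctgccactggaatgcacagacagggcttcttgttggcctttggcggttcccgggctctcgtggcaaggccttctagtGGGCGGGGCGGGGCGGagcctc
The Matn1 window held 1 GC box, on the other strand, and the Matn3 window held 3 that overlap one another. Neither held a TATAAA motif or the SOX core motifs ACAATG and AACAAT, which overlap in AACAATG, on either strand. Windows of this length were matched for 7 of the 10 members (all but Sox9, Comp and Prg4). Sox6 had 6 windows, at different starts, and the other matched members 1 each, 12 in all. A GC box was in 4 of the 12 windows (1 each of Acan, Matn1, Matn3 and Sox6), a share near the 32.7% of all 32851 windows. A SOX core motif was in 3 of the 12 (1 of Sox5 and 2 of Sox6), against 16.2% of all windows. These matches are descriptions of letters near a start and say nothing of binding.

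Over all stromal cells the transcription factors moved little. Sox9, the master factor of the chondrocyte lineage, lies at chr11:112782210-112787757 and stood at 395 CPM (E16.5), 619 CPM (E18.5), 479 CPM (P0) and 480 CPM (adult). Sox5, a partner factor that lacks a transactivation domain of its own, stood at 107, 133, 107 and 138 CPM in the same order. Sox6, its close relative, stood at 64.4, 93.4, 66.0 and 58.0 CPM. The E18.5 library was the highest for Sox9 and Sox6 and the adult library for Sox5. No SOX gene differed by 2-fold between adjacent stages, with ratios of 0.707 to 1.57.

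The matrix genes moved more. Acan (chr7:79053226-79115099), which encodes aggrecan, stood at 918, 2096, 1437 and 1893 CPM. Hapln1 (chr13:89540529-89611832), the link protein that fastens aggrecan to hyaluronan, stood at 1320, 2005, 1558 and 1646 CPM. Cnmd (chr14:79637682-79662194), which encodes chondromodulin, an inhibitor of vessel growth in cartilage, stood at 1306, 2334, 1856 and 1449 CPM. All of these were lowest at E16.5 and highest at E18.5. Matn3, a matrilin of growth cartilage, stood at 291, 796, 550 and 1247 CPM. Comp (chr8:70373548-70382066), a pentameric matrix protein of cartilage and tendon, stood at 764, 1964, 1855 and 6692 CPM. These 2 genes were highest in the adult library. Matn1, the cartilage matrix protein matrilin-1, ran the other way, with 816, 1270, 856 and 85.2 CPM. Prg4 (chr1:150449412-150466221), which encodes lubricin, stood at 26.7, 205, 571 and 7371 CPM and was higher at each later stage.

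**Figure D1:**
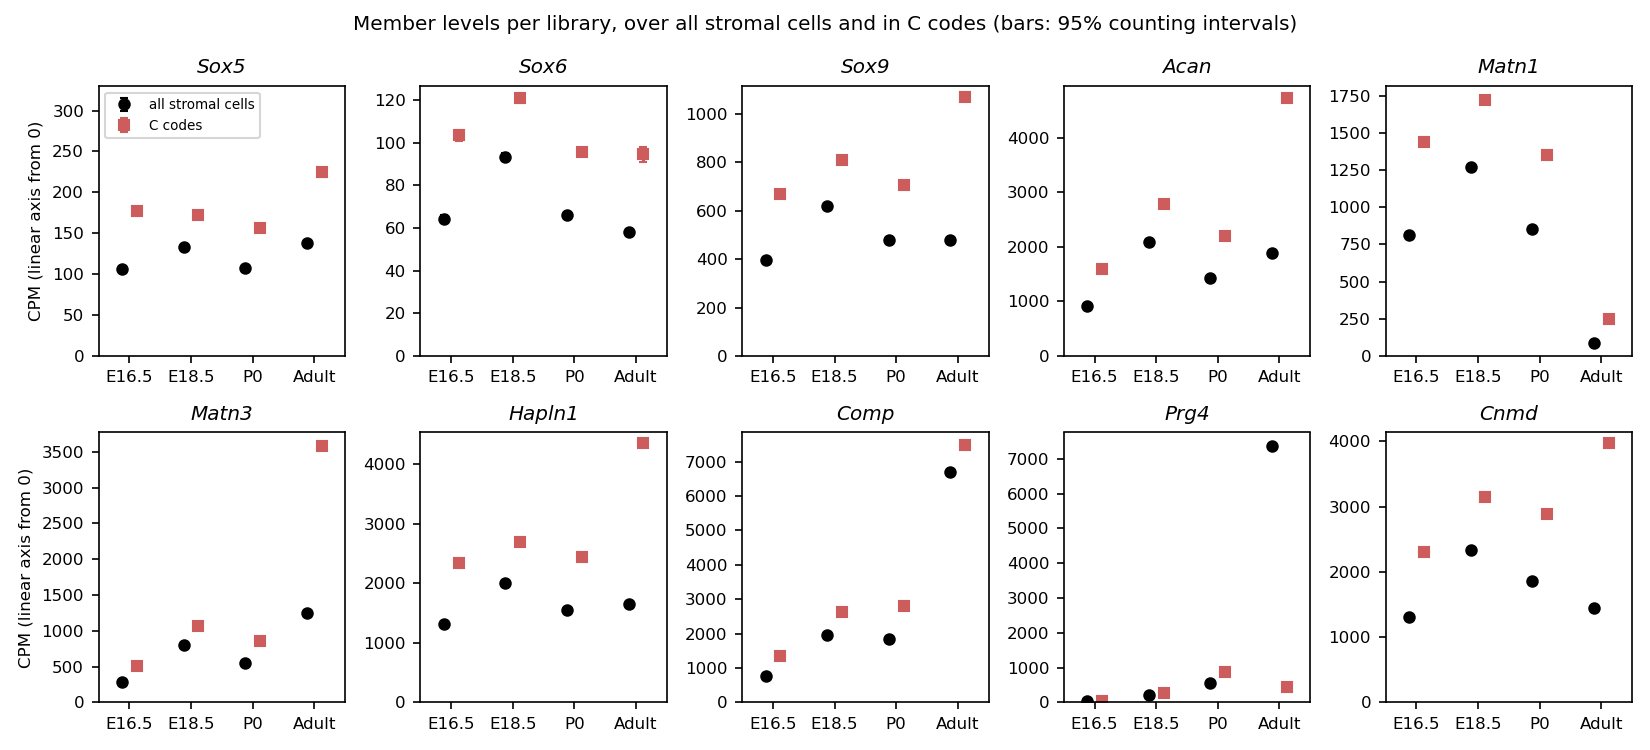
Level of each member in CPM (linear axes from 0) by stage, over all stromal cells (black circles) and in C codes (red squares), with 95% counting intervals that are mostly smaller than the symbols. Matn1 is at 85.2 CPM in the adult library while Prg4 is at 7371 over all cells and 440 in C codes.

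A gene was counted as different between adjacent stages where its CPM differed at least 2-fold and the higher library held at least 50 UMIs of it. Intervals beside ratios are 95% intervals that cover counting error only. From E16.5 to E18.5, 4 of the 10 members were higher, against 2.37% of all 14498 genes measured. They were Prg4 (7.67-fold, 7.39 to 7.97), Matn3 (2.73-fold), Comp (2.57-fold) and Acan (2.28-fold). No member was lower, against 4.01% of genes. From E18.5 to P0 only Prg4 passed, 2.79-fold higher (2.75 to 2.83), against 3.47% of genes higher, and no member was lower (0.487% of genes). From P0 to the adult 3 members were higher, against 17.6% of genes: Prg4 12.9-fold (12.8 to 13.0), Comp 3.61-fold and Matn3 2.26-fold. The Matn3 call did not hold under 3 alternatives, at 1.80-fold without the cells with most UMIs, 1.88-fold without mitochondrial and ribosomal genes and 1.24-fold with the mean of each cell's CPM. Matn1 was 10.0-fold lower (9.82 to 10.3), the only member lower, against 11% of genes, though with the mean of each cell's CPM Cnmd was lower too (0.448). The share of higher members in the adult step, 3 of 10, is thus read against a background at which many genes pass. The median log2 ratio over the members was 0.74, -0.37 and 0.22 for the successive steps, and over all genes measured -0.01, -0.01 and 0.18. In such sums a larger share of cartilage cells and more RNA per cartilage cell cannot be told apart, and the share of cells in C codes was highest at E18.5, as were the levels of Sox6, Sox9, Acan, Matn1, Hapln1 and Cnmd.

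Restricting the count to cartilage cells shortened the list of perinatal differences. Within the cartilage clusters by name, Prg4 alone was higher at E18.5 than at E16.5 (8.09-fold, 2.58% of genes higher and 1.87% lower), and Matn3 (1.92-fold), Comp (1.72-fold) and Acan (1.66-fold) stayed under 2-fold. With C codes, Prg4 (6.92-fold) and Matn3 (2.07-fold) passed, against 2.38% of genes, and no member was lower by either definition (1.63% of genes lower in C codes). From E18.5 to P0 no member passed by name (3.11% of genes higher, 1.6% lower), where Prg4 was 0.560 times its E18.5 level, whereas with C codes Prg4 was 3.17-fold higher (2.82%). The code C2i, where most Prg4 lay, is in the name set at E18.5 and out of it at P0, so the direction for Prg4 followed the definition. By name the P0 level of 178 CPM also lay below the endothelial level of Prg4 in that library, given further below.

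The adult step within cartilage cells kept the matrilin split. In C codes Matn1 stood at 1441, 1724, 1354 and 251 CPM from E16.5 to the adult, and was 5.39-fold lower in the adult than at P0 (5.27 to 5.51; 13.4% of genes lower). Matn3 stood at 514, 1065, 852 and 3582 CPM and was 4.21-fold higher (4.17 to 4.24; 12.7% of genes higher). Comp was 2.67-fold higher, from 2802 to 7479 CPM, and Acan 2.16-fold higher, from 2195 to 4732 CPM. Hapln1 (1.79-fold), Sox9 (1.51-fold), Sox5 (1.44-fold), Cnmd (1.38-fold) and Sox6 (0.987-fold) stayed within 2-fold. By name, Matn1 was 9.14-fold lower (9.63% of genes lower) and Matn3 2.64-fold and Comp 2.84-fold higher (14.2% of genes higher), with Acan at 1.60-fold. Prg4 depended on the definition again, at 64.4-fold higher by name and 0.512 times the P0 level in C codes. The definitions differ in both libraries, with F9 in the adult set by name and C2i and C2ii out of the P0 set by name. Without F9 alone the ratio by name was 2.47, from 178 CPM at P0 to 440 CPM in the adult, whereas C codes held 860 CPM at P0. Both 178 and 440 CPM lay below the endothelial levels of Prg4 in their libraries, given further below. The sizes of 64.4, 2.47 and 0.512 are therefore not read as changes within cartilage cells. Adult C codes were also the deepest, with a median of 27498 UMIs per cell against 17077 at P0, and the part of depth was not tested. At 1000 UMIs per cell, drawn at random from each cell of the C codes, Matn1 was seen in 44.2%, 43.6%, 34.3% and 11.8% of cells from E16.5 to the adult, and Matn3 in 32.0%, 55.6%, 45.6% and 86.6%. Before thinning these shares were 72.1%, 76.5%, 68.0% and 48.8% for Matn1, and 81.1%, 94.4%, 88.7% and 96.8% for Matn3. Thinned endothelial cells, which should lack both, showed Matn1 in 9.86%, 8.43%, 8.12% and, in adult arterial and sinusoidal codes, 0 of 389 and 0 of 194 cells, which allow shares of up to 0.771% and 1.55%. They showed Matn3 in 5.63%, 4.82%, 8.12% and 1.54% to 2.06%. The adult share of Matn1 in C codes was thus above its own endothelial background.

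**Figure D2:**
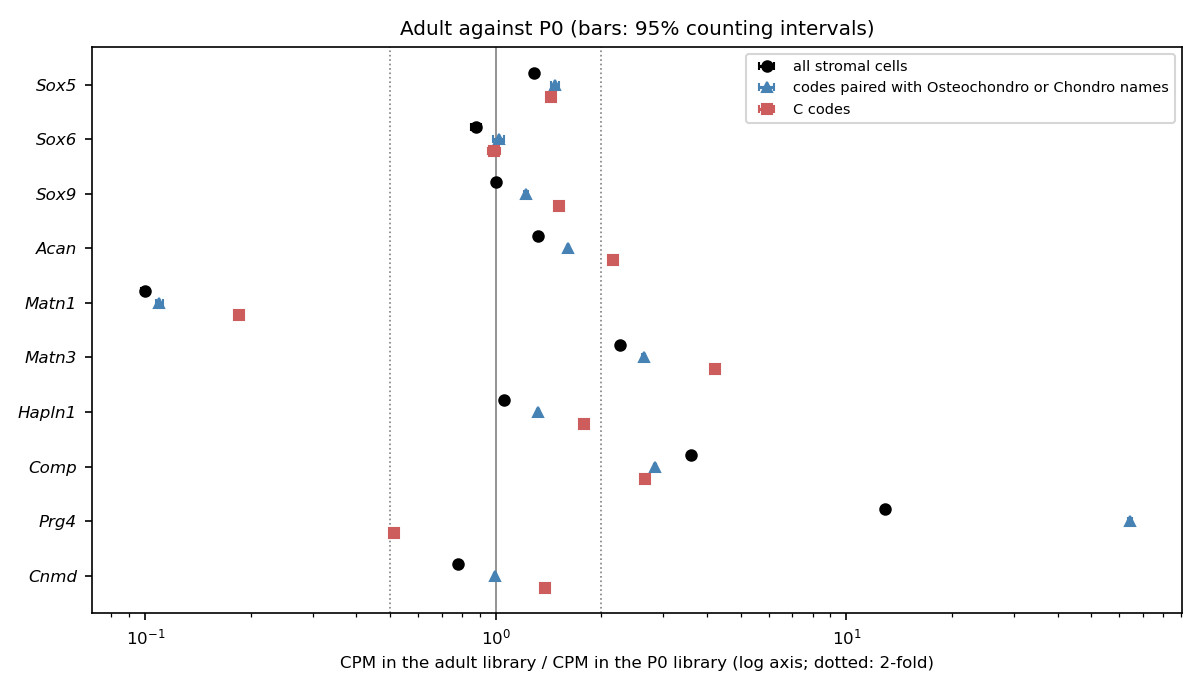
Ratio of CPM in the adult library to CPM in the P0 library (log axis, dotted lines at 2-fold) for each member over all stromal cells, in the codes with Osteochondro or Chondro names, and in C codes, with 95% counting intervals. Matn1 lies left of the lower dotted line in all 3 sets and Matn3 and Comp right of the upper one, while Prg4 moves from 64.4 by name to 0.512 in C codes. For Prg4 the P0 level by name and the adult level in C codes lay below the endothelial levels of those libraries.

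At the perinatal stages each member was highest in a C code, though not all in the same one. Since the authors made the clusters from these counts, the following is a description. With C codes, all 10 members had their highest code among them at E16.5, E18.5 and P0 and 7 of 10 in the adult, against 16.3%, 19.7%, 10% and 15.2% of all genes measured. By name the counts were 10, 5, 7 and 7, against 16.3%, 23.7%, 11.6% and 17.1%. C codes held 53.6% of all UMIs at E16.5, 70.3% at E18.5 and 57.5% at P0, and 79.0% to 95.4% of the UMIs of each member. In the adult they held 33.2% of all UMIs, 98.0% of Matn1, 95.5% of Matn3 and 91.2% of Cnmd, but 54.2% of Sox5 and of Sox6, 37.1% of Comp and 1.98% of Prg4. In no perinatal library did C codes hold less than 79.0% of a member's UMIs.

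**Figure D3:**
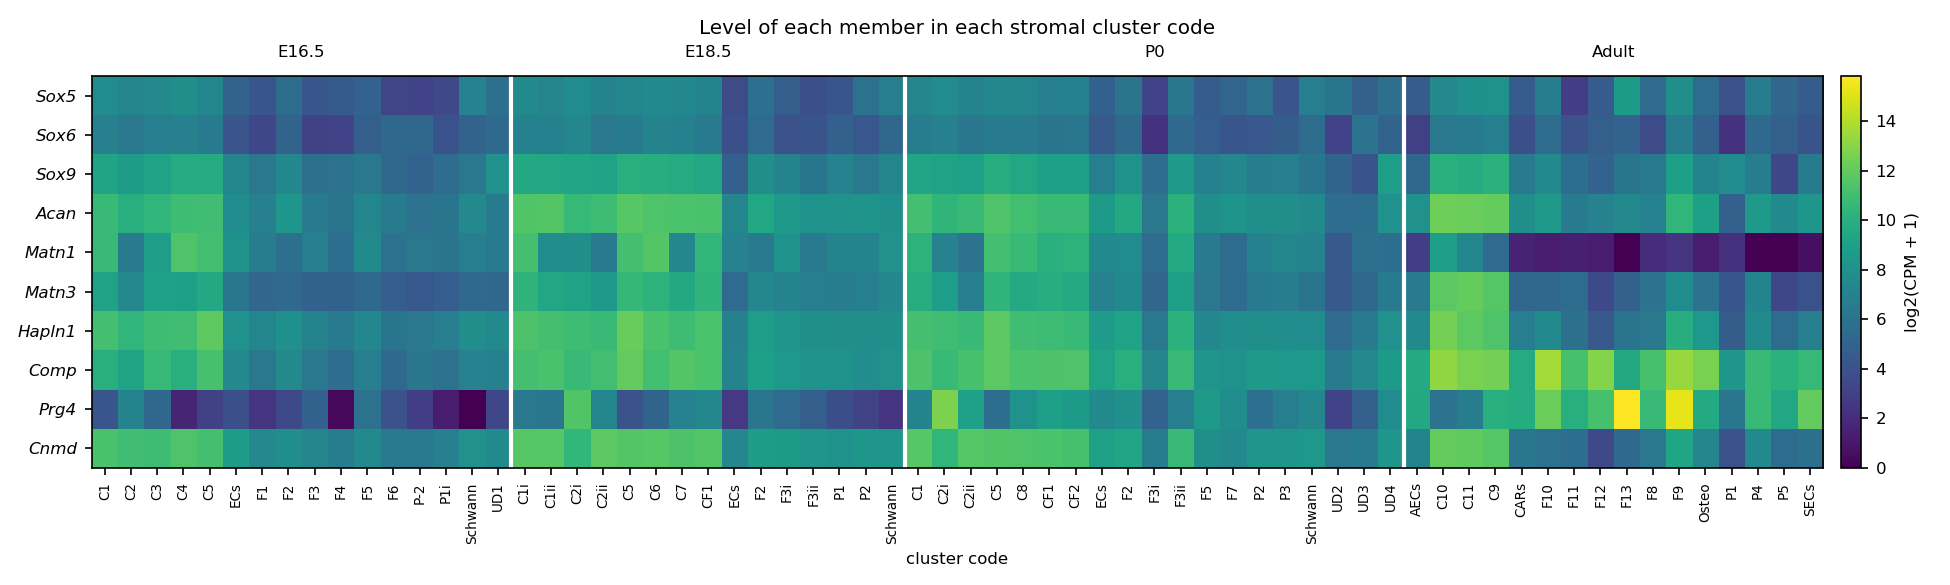
Heat map of log2(CPM + 1) for each member (rows) in each stromal code with at least 20 cells (columns), ordered by stage. The 10 rows brighten together over the C and CF codes at the perinatal stages, except Matn1 and Prg4. In the adult Comp is bright in F9, F10 and F12 as well as in the C codes, and Prg4 is brightest in F13, F9 and F10.

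Among the C codes, SOX levels differed by 1.3- to 2.1-fold from the highest to the lowest code. At E16.5 Sox9 stood at 868 CPM in C5 and 856 in C4, whose intervals overlapped, and at 413 in C2. At E18.5 it ran from 988 in C5 to 546 in C2ii, and at P0 from 925 in C5 to 528 in C2ii. In the adult it was 1145 CPM in C9, 1075 in C10 and 877 in C11. Sox5 and Sox6 shared a highest code at each perinatal stage, C4 at E16.5 (223 and 120 CPM) and C2i at E18.5 (211 and 157 CPM) and P0 (194 and 117 CPM), though Sox6 in C4 overlapped C1. C2i and C2ii therefore stood at opposite ends for Sox5 and Sox6 at E18.5 and P0.

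C5 led for most of the matrix. It was the perinatal C code with Col10a1 (984, 296 and 194 CPM at E16.5, E18.5 and P0, against at most 3.86 in other C codes) and Ihh (173, 237 and 80.7 CPM), genes of prehypertrophic and hypertrophic chondrocytes. C5 had osteolineage as its leading marker list at those stages, as given above. It was the highest code at all perinatal stages for Hapln1 (3880, 4557 and 3618 CPM), Comp (2424, 4262 and 3670 CPM), Matn3 (753, 1497 and 1291 CPM) and Acan (1988, 3408 and 2866 CPM), the last with an interval that overlapped C4 (1941 CPM) at E16.5. In the adult, C10 was the C code with Col10a1 (1459 CPM) and Ihh (137 CPM), and it was highest for Hapln1 (5871 CPM), Acan (5090 CPM) and Cnmd (4419 CPM). Matn3 was highest in C11 (4374 CPM), a small code of 138 cells with the proliferation gene Mki67 at 263 CPM. C5 was also the deepest code at each perinatal stage, with medians of 21987.5, 31761 and 25228.5 UMIs per cell, and CPM are shares of those UMIs. The surface tag CD73 had its highest C code median in C5 as well, at 66 tags per cell at E16.5 (25 to 32 in the other C codes). It was 27 at E18.5 (12 to 16) and 27 at P0 (17 to 19). Some codes outside the C codes held more, such as F6 at E16.5 (428.5), F3ii at E18.5 (1078) and F2 at P0 (43). Among the C codes the transcript of CD73, Nt5e, was highest in C5 at E16.5 (75.8 CPM). At E18.5 it was highest in C2i (131 CPM, against 110 in C5), as at P0 (143 CPM, against 122 in C5). Outside the C codes F3ii held 174 CPM at E18.5. Tags were not scaled, and the part of depth in the C5 value was not tested. The endothelial tag CD31 stayed at medians of 0 to 4 in all C codes, against 79.5 to 368 in endothelial codes.

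Matn1 and Prg4 spanned the widest range over the C codes of each library. Matn1 spanned 33.0-fold at E16.5, from 2853 CPM in C4 to 86.6 in C2. At E18.5 it spanned 35.0-fold, from 3083 CPM in C6 to 88.1 in C2ii, with C1i (2335) and C5 (2319) near the top and C2i (221), C1ii (214) and C7 (165) near the bottom. At P0 it spanned 33.1-fold, from 2153 CPM in C5 to 65.0 in C2ii, and in the adult 10.3-fold, from 462 CPM in C10 to 45.0 in C9. Endothelial cells of the same libraries held 278, 131 and 185 CPM at E16.5, E18.5 and P0, so C2 at E16.5, C2ii at E18.5 and C2i (128) and C2ii at P0 were below that background. No C code at E18.5 lay between 221 and 2319 CPM. Matn3 was also lowest in C2 or C2ii at the perinatal stages, spanning 4.38-fold at E16.5, 4.11-fold at E18.5 and 12.1-fold at P0, where it ran from 1291 CPM in C5 to 107 in C2ii.

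Prg4 had its highest perinatal level in codes where Matn1 was low. At E16.5 it stood at 133 CPM in C2 and 2.15 in C4, a 61.7-fold span. At E18.5 it stood at 3002 CPM in C2i, with the next C code at 150 (C2ii) and the lowest at 15.6 (C5). At P0 it stood at 6762 CPM in C2i, 530 in C2ii and 51.3 in C5. C2i held 70.9% of all Prg4 UMIs at E18.5 and 68.0% at P0, with 4.83% and 5.74% of all UMIs. Creb5, a factor known to activate Prg4 in joint cartilage, was also highest in these C codes. It stood at 169 CPM in C2, 483 in C2i at E18.5 and 511 in C2i at P0. Any other C code of these 3 libraries held at most 167 CPM, close to the value in C2. Outside the C codes F5 held Prg4 at 59.5 CPM at E16.5 and 383 at P0, with endothelial levels of 13.8 and 186 CPM. C4 at E16.5 and C5 at P0 lay below those levels, so the 61.7-fold span reached under that background.

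**Figure D4:**
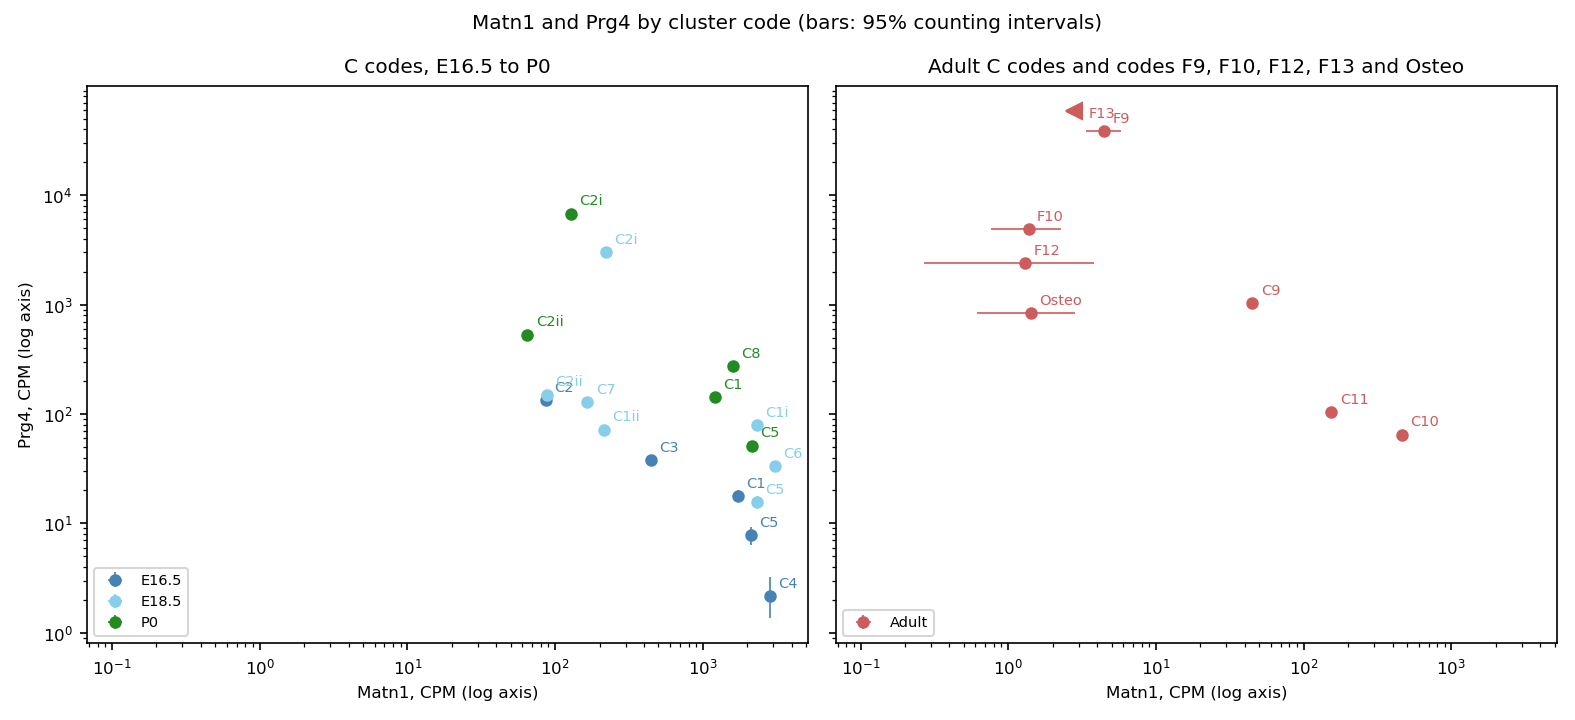
Prg4 against Matn1, each in CPM on log axes, for the C codes of the perinatal libraries (left) and for adult C codes and codes F9, F10, F12, F13 and Osteo (right), with 95% counting intervals. The codes C2, C2i and C2ii lie at the left with Matn1 at 65.0 to 221 CPM and Prg4 at 133 to 6762 CPM. C1ii and C7 at E18.5 also lie at the left, with less Prg4 than C2ii of that stage. C4, C5 and C6 lie at the lower right with Matn1 at 2111 to 3083 CPM. F13, which held no Matn1 UMI, is drawn as a triangle at its upper limit.

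Matn1 and Prg4 were also compared cell by cell. In C code cells thinned to 1000 UMIs, Prg4 was seen at E16.5 in 0.552% of cells with Matn1 (95% Clopper-Pearson interval 0.265% to 1.01%) and in 4.50% of cells without it. At E18.5 the shares were 2.42% and 15.6%, at P0 5.52% and 26.4%, and in the adult 3.91% (1.28% to 8.88%) and 5.95% (4.54% to 7.64%), where the intervals overlapped. Cells with both were 0.200, 0.246, 0.287 and 0.684 times the product of the separate shares from E16.5 to the adult. In the cartilage clusters by name this quotient was 0.200, 0.339, 0.905 and 0.130. At P0, where C2i and C2ii are out of that set and CF1 and CF2 are in it, the quotient was near 1. Prg4 was there seen in 13.5% of cells with Matn1 and 16.2% of cells without it. Cells with both numbered 374 by name and 115 in C codes, and the part of each code in this was not tested. In the adult, where F9 is in that set, the shares by name were 5.30% and 43.5%. For Sox9 with Acan in C codes the quotient was 1.06, 1.01, 1.02 and 1.00, and for Acan with Hapln1 1.06, 1.01, 1.03 and 1.01. Sox5 with Sox6 gave 1.14, 1.09, 1.15 and 1.54. The adult value rested on 31 cells with both genes, and it was 1.06 at 2000 UMIs per cell and 1.02 without thinning. In thinned endothelial cells Prg4 was seen in 0 of 71 cells at E16.5, which allows a share of up to 4.23%, in 1.20% at E18.5, in 6.60% at P0, and in 13.1% (arterial) and 14.4% (sinusoidal) in the adult. At E18.5 this was 1 of 83 cells, and 3 cells would be 3.61%. The shares in cells with Matn1 were thus at or below what this background allows at every stage, as was the adult share in cells without Matn1, and no adult difference is read from them. At E16.5 the share in cells without Matn1, 4.50% (3.69% to 5.43%), had an interval that included the 4.23% allowed. No E16.5 difference is read either. Unthinned, the quotient of Matn1 with Prg4 in C codes was 0.697, 0.784, 0.876 and 1.08 from E16.5 to the adult, so the adult value lay on the other side of 1. A thinned C code cell held UMIs of a median of 4 members at E16.5, 5 at E18.5 and P0, and 6 in the adult.

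In the adult, Prg4 and Comp were highest outside the C codes. Prg4 stood at 58298 CPM in F13, a code of 70 cells. The 6 synovial lining markers, among them Clic5 at 1229 CPM, summed to 6104 CPM there, with all but 1 detected. In F9, a code of 916 cells paired with the Osteochondro name, Prg4 stood at 38253 CPM and Col2a1 at 19359 CPM. F10 followed with 4865 CPM, and C9 was the highest C code with 1025 CPM. Endothelial codes of the adult held 742 CPM (arterial) and 4180 CPM (sinusoidal), so the level in C9 was below the sinusoidal one. Comp was highest in F10 (12817 CPM) and F9 (10847 CPM), then C10 (9267 CPM), F12 (7579 CPM) and the osteolineage code Osteo (6435 CPM). Its endothelial levels were 811 and 1547 CPM. F12 and F11 had the tendon markers as their leading list, and Comp is known from tendon as well as cartilage. Sox5 was highest in F13 (402 CPM), then C9 (273 CPM), C11 (243 CPM) and F9 (226 CPM), of which C9 and F13 did not overlap. Sox6 in C9 (113 CPM) overlapped F9 (101 CPM).

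Outside the C codes, the ratio of each member to Col2a1 was compared with the same ratio in the C codes of that library. A similar ratio does not tell transcripts carried over from chondrocytes from transcripts made in those cells, and their source was not tested. At E16.5, E18.5 and P0 none of the 11, 7 and 12 codes outside the C and CF codes exceeded that ratio 2-fold for Acan, Matn1, Matn3, Hapln1, Comp or Cnmd. The SOX genes exceeded it in several codes. Sox5 in the Schwann code was at 6.07 times the ratio at E16.5 and 8.67 times at E18.5, with 129 and 112 CPM, and Sox9 was at 3.95 times in UD1 at E16.5 (252 CPM) and 6.72 times in UD4 at P0 (461 CPM). These matrix genes ranged from 0.367 times the ratio (Matn1 at E18.5) to 1.97 times (Matn3 in the Schwann code at E18.5). Prg4 exceeded it in 7 of 11 codes at E16.5, 0 of 7 at E18.5 and 3 of 12 at P0, with its highest values in F5 at E16.5 (18.3 times) and F5 at P0 (4.78 times). In the adult this reference could not be used for Prg4, Comp, Sox5 or Sox6, of whose UMIs the C codes held 1.98% to 54.2%. For the others, of which C codes held 74.0% to 98.0%, the ratio was exceeded 2-fold in 8 of 13 codes for Sox9, 5 for Acan, 2 for Hapln1, 1 each for Matn1 and Cnmd and 0 for Matn3. No minimum number of UMIs was set for these ratios. The Matn1 case was P1, and Matn1 was at most 6.23 CPM in these 13 codes. The Cnmd case was P5, a code of 21 cells that was also the highest case for Hapln1.

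**Figure D5:**
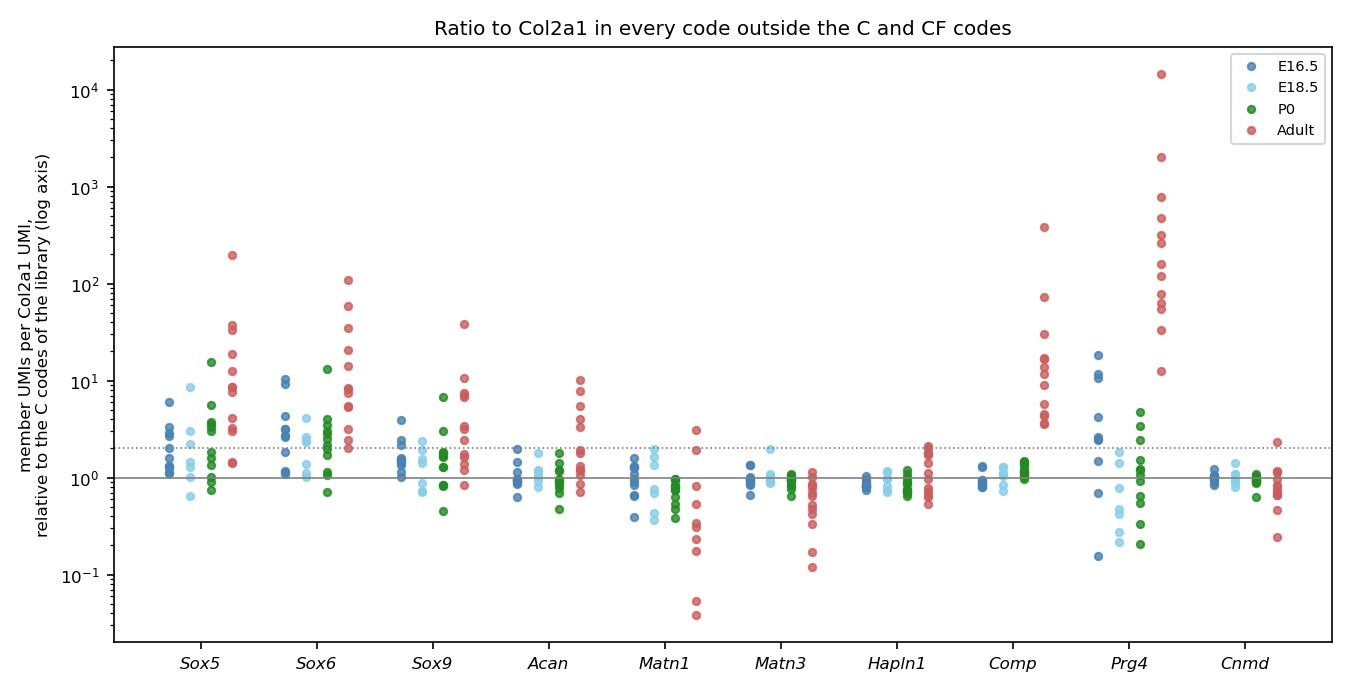
UMIs of each member per Col2a1 UMI in every code outside the C and CF codes, divided by the same ratio in the C codes of that library (log axis, solid line at 1, dotted line at 2-fold), where codes without a UMI of the member are not drawn. Perinatal points for Acan, Matn1, Matn3, Hapln1, Comp and Cnmd stay below 2. Adult points for Comp and Prg4 all lie above it. C codes held only 37.1% and 1.98% of the adult UMIs of these genes, so the reference could not be used and nothing is read from their position.

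The genes most like each member were sought across 65 codes (all with at least 50 cells) by Pearson's r of log2(CPM + 1) among 7668 genes, as a description across codes that share libraries and depth. Cnmd was most like the type IX collagen genes Col9a2 (r = 0.991), Col9a1 (0.985) and Col9a3 (0.985). Matn3 was most like Col11a2 (0.945), a type XI collagen chain, and Hapln1 like Col9a2 (0.967). Acan was most like Papss2 (0.963), an enzyme that makes the sulfate donor for proteoglycans, and Comp like Chad (0.968), a leucine-rich cartilage protein. Sox9 was most like Fgfrl1 (0.919), Sox6 like Scrg1 (0.858) and Sox5 like Dusp18 (0.838). Matn1 was most like Snhg6 (0.865) and Prg4 like Tob1 (0.859). When ranks were used the leading gene changed for 6 members: to Epyc, a cartilage proteoglycan gene, for Matn1 (0.835), Cilp2 for Prg4 (0.884), Xylt1 for Sox5 (0.865), Rab11fip4 for Sox6 (0.854), Foxa3 for Sox9 (0.901) and 3110079O15Rik for Hapln1 (0.952).

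Of 44 other cartilage genes, 9 of the 43 measured were at least 2-fold higher over all stromal cells at E18.5 than at E16.5 and 1 was lower, against the 2.37% and 4.01% of all genes given above. Col2a1 was 2.86-fold higher, from 11621 to 33185 CPM, whereas Col11a1 (1.49-fold), Col9a3 (1.74-fold) and 3110079O15Rik (1.60-fold), a chondrocyte proteoglycan gene, were not past 2-fold. The gene that was lower was Col10a1, from 122 to 35.9 CPM. From E18.5 to P0, 1 of 43 was higher (Cilp, 2.37-fold) and 1 lower (Ihh, 0.429-fold), against 3.47% and 0.487% of all genes, and all members but Prg4 also stayed within 2-fold. From P0 to the adult, 12 of 44 were higher and 6 lower, against 17.6% and 11% of all genes, so the count of lower genes was near that background. Col10a1 was 11.8-fold higher, from 31.5 to 372 CPM. Larger fold changes included Cilp, from 39.3 to 1290 CPM, and Cilp2, from 34.5 to 809 CPM. The 6 that were lower were Ucma (0.265), Foxa2 (0.329), Gdf5 (0.388), Epyc (0.391), Clec3a (0.429) and Has2 (0.439), given as adult to P0 ratios, among which Ucma and Epyc encode cartilage matrix proteins. Col2a1 (0.805), Col9a3 (0.599) and Col11a1 (0.530) were lower but within 2-fold. Matn1, at 0.0995, was below all of these 44 genes in the adult step, and Matn3, at 2.26, was above Col2a1 and the collagens named with it. The median log2 ratio of the list was 0.57, -0.22 and 0.46 for the successive steps.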

How the data were processed

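The 4 CITE-Seq libraries of CD45-Ter119- BM cells, 1 for each stage, were analysed. The deposited matrix holds raw UMI counts per gene and cell. Per the labels and the study's methods, the authors sequenced 10x 3' v3.1 libraries, processed them with Cell Ranger 3.1.0 (mm10) and analysed them in R 4.0 with Seurat 3.1.5. They left out low-UMI cells, cells with a high mitochondrial share, the cells with the most UMIs or genes as putative doublets, and blood cells in the stroma. The deposited cell table gives the authors' cluster codes and a fraction of mitochondrial counts per cell, and the antibody counts are raw. No doublet caller was run here.

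UMIs were summed per library or code and divided by all UMIs (CPM), with exact Poisson intervals. Ratios have exact conditional binomial intervals and shares have Clopper-Pearson intervals, all at 95% and for counting error only, since PCR and pooling errors are not covered. Counts from 3' ends were not scaled by gene length, so levels were compared within a gene. A gene counted as different at 2-fold or more with at least 50 UMIs in the higher library. Codes needed 20 cells, and 50 for similarity. Cells were thinned to 1000 UMIs for shares, leaving out shallower cells (32, 168, 1471 and 33 cells from the youngest stage to the adult). Codes were paired with the study's cluster names by z-scores averaged over the first 50 markers listed for each name. All 10 members are named. Of the other 44 cartilage genes, the stage comparisons name the 4 with the highest summed CPM and those that passed against the majority. Where 1 passed each way, both are named, and Col10a1, Cilp and Cilp2 are also named in the adult step. Outside this rule, Col10a1, Ihh and Creb5 were picked to stand beside members by code. For each member the 3 most similar non-member genes were found and the leading ones named. Members, lists and definitions were chosen with earlier results of these data known. The ratio computation was tested on simulated data. Alternatives were other scalings (edgeR 4.0.16 TMM, median of ratios), cell filters, cell summaries and cartilage definitions. Tools were Python 3.11.15, numpy 2.4.6, scipy 1.17.1, pandas 2.3.3, matplotlib 3.10.9 and R 4.3.3.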

Additional observations from a re-analysis of the deposited data

Results flagged for a closer look

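In the hematopoietic progenitor libraries, sorted as Lineage-Kit+ BM cells and outside the comparisons above, a member stood above the limit that a count of 0 allows (3 UMIs) in 92 of 810 pairs of a member and a code with at least 20 cells, and each of the 10 did so in at least 1 code. The same share over all genes was not computed, and the limit is low in deep codes. These counts are therefore not read as a trait of the members. The codes described here were chosen after their values were seen. Hapln1 stood at 81.5 CPM in code Mast1 of the first E16.5 library (199 UMIs in 106 cells) and at 82.8 CPM in code Mast1 of the other E16.5 library (1073 UMIs in 869 cells), where 3 UMIs would be 1.23 and 0.231 CPM. The 3 Mast codes and the code Mono/Mast together held 99.6% and 96.1% of the Hapln1 UMIs of these libraries. In the Mast1 cells Col2a1 had 0 and 2 UMIs, and the mast cell protease gene Cpa3 stood at 17758 and 21601 CPM. Sox6 stood at 15.4 CPM in code EryP2 of the adult library (199 UMIs in 474 cells), which held 75.1% of the Sox6 UMIs of that library, with 2 Col2a1 UMIs and with Klf1, an erythroid factor, at 164 CPM. Codes EryP/MegP at E18.5 and EryP1 at P0 held Sox6 at 1.32 and 3.25 CPM, with 32.4% and 41.8% of the Sox6 UMIs of those libraries. What share of all UMIs these mast and erythroid codes held was not computed. SOX6 is known to act in erythroid cells as well as in cartilage.

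The adult hematopoietic progenitor library also held a code that the authors named Stroma, with 56 cells and 601 UMIs of Col2a1, where 8 members stood above the limit. Comp stood at 2221 CPM (91 UMIs), Prg4 at 2050 CPM (84 UMIs), Hapln1 at 1123 CPM (46 UMIs) and Acan at 952 CPM (39 UMIs). Cnmd stood at 781 CPM, Matn3 at 634 CPM, Sox9 at 244 CPM and Matn1 at 195 CPM, the last with 8 UMIs. Sox5 and Sox6 had 0 UMIs, where 3 UMIs would be 73.2 CPM.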

How the results depend on the processing

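Of 114 stage counts under alternatives, 108 stayed within 1.5 times the reported count, as did 27 of 28 counts of highest codes, and 558 of 570 single ratios kept their side of 2-fold. Of the 570, 41 crossed from one side of 1 to the other, and 1 of these had been past 2-fold (Prg4 in the adult, in C codes). Over all stromal cells the adult to P0 ratio of Acan went from 1.32 to 0.870 and that of Hapln1 from 1.06 to 0.639 with the mean of each cell's CPM. The 40 levels over all stromal cells moved by little without cells under 1000 UMIs, but those cells hold so few of the summed UMIs that little movement was possible. Over all stromal cells, the mean of each cell's CPM gave 2 members lower in the adult, adding Cnmd (0.448), and Matn3 was under 2-fold without the cells with most UMIs (1.80), without mitochondrial and ribosomal genes (1.88) and with the mean of each cell's CPM (1.24). Within cartilage clusters, 2 members were higher at E18.5 without the cells with most UMIs, with the mean of each cell's CPM, or with C codes, each adding Matn3 (2.04 to 2.09), and 1 was higher at P0 in cells with 3 or more chondrocyte marker UMIs or in C codes (Prg4, 2.88 and 3.17). C codes also gave 10 members with their highest code in cartilage at E18.5 and turned the adult ratio of Prg4 to 0.512, and Acan passed 2-fold in C codes (2.16) or without the adult Osteochondro code (2.02). The definition with C codes and the counts without CF1, CF2 and UD2 were chosen after seeing the data, and leaving out those shallow codes changed no count. Those codes hold few of the summed UMIs as well, so the stage counts had little room to change.

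The median share of C code cells with a member UMI followed depth. It was 58.4%, 70.9%, 62.5% and 86.4% from E16.5 to the adult at 2000 UMIs and 87.8%, 96.3%, 92.7% and 97.5% without thinning. The quotient for Matn1 with Prg4 was 0.390 at E18.5 and 0.408 at P0 at 2000 UMIs, and 0.697, 0.784, 0.876 and 1.08 from E16.5 to the adult without thinning, against 0.684 in the thinned adult cells. In the cartilage clusters by name it was 0.905 at P0 and 0.130 in the adult. By Spearman's rho 18 of the 30 most similar genes were shared. No paired analysis was possible because each stage is 1 stromal library and no result comes from a test. The causes of these changes were not tested beyond what each alternative's own cells or genes set.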
